A study of Mus musculus with 8 samples.

Results

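The classical cadherins and their catenins were followed through 10 genes, Cdh1, Cdh2, Cdh3, Cdh4, Cdh6, Cdh11, Ctnna1, Ctnna2, Ctnnb1 and Ctnnd1, out of 43346 gene identifiers counted. They were taken by name as members of this adhesion system, and since the list was drawn up with their counts at both stages and the differences between stages already known, it was in part selected on those values. The stage differences of the 10 genes are therefore given as a description, without a p-value for any of them. RNA was sequenced from notochord-derived cells (NDCs) of Shh-cre;ROSA:YFP mice, in which Cre from the Shh locus switches on YFP in Shh-expressing cells, the notochord among them, and in all of their progeny. There were 4 litters at embryonic day 12.5 (E12.5), labelled NDP10.2, NPD3, NPD4 and NPD9.2, and 4 litters at postnatal day 0 (P0), labelled NPD26, NPD27, NPD28 and NPD30, and the animals of a litter were pooled into 1 sample. All 8 samples carried the same genotype and none was treated. At E12.5 the notochord was dissected whole, cleaned of adjoining tissue and frozen without sorting, whereas at P0 the nuclei pulposi (NPs) of thoracic and lumbar discs were dissociated and the YFP-positive cells sorted. Stage and method of isolation cannot be told apart.

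Classical cadherins are calcium-dependent adhesion molecules that span the membrane and bind cadherins of the same kind on a neighbouring cell. Their cytoplasmic tail holds p120-catenin (Ctnnd1) near the membrane and β-catenin (Ctnnb1) further along, and β-catenin binds α-catenin (Ctnna1, Ctnna2), which connects the junction to actin. β-catenin is also the transcriptional coactivator of canonical Wnt signalling, so its transcript serves more than adhesion. The notochord is an epithelium-like rod inside a matrix sheath, and the NP that forms from it is made of clusters of vacuolated cells joined to each other.

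Gene counts per litter lay between 4442775 and 8904050. A value of 3 counts, taken as the floor, equalled 0.337 to 0.675 CPM (read counts scaled to library size) on library sizes before normalization. The floor covers counting error only. All other CPM were computed on library sizes normalized by the trimmed mean of M-values (TMM), on which 3 counts equal somewhat different values. The E12.5 litters NDP10.2 and NPD9.2 had the smallest shares of tallied reads on genes, 22.6% and 24.6%, against 30.9% to 34.8% in the other litters. Each litter gave 1 pooled sample, so the spread given is that between litters. Of 15467 genes tested between the stages with the edgeR quasi-likelihood F-test, 27.9% passed at a Benjamini-Hochberg adjusted p under 0.05, with 12% lower and 16% higher at P0.

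The labels were checked against 10 notochord markers. T (brachyury), Krt8, Krt18 and Car3 were present in every litter. Of the 9 markers tested, 3 were higher at P0 (Car3, Cd24a and Krt19), 2 were lower (Shh and Foxa1) and the others did not pass. The summed level of the list, 2382 to 6367 CPM at E12.5 and 8220 to 31824 CPM at P0, was carried at P0 mostly by Car3, which alone was at 695 to 2418 CPM and then at 6250 to 24889 CPM. Foxa1, a forkhead factor of the notochord, was at 70.0 to 239 CPM at E12.5 and 18.6 to 52.3 CPM at P0. Shh, whose locus drives the Cre, was at 420 to 1348 CPM at E12.5 and at 0.157 to 11.8 CPM at P0. Noto, the notochord homeobox gene, was at or under the floor in all litters, with a highest value of 0.433 CPM. Markers of other cell types were detected at both stages. Blood (erythroid) genes summed to 9606 to 44030 CPM at E12.5 against 180 to 628 CPM at P0, and 6 of the 7 genes of that list were lower at P0. The leukocyte list summed to 53.7 to 107 CPM at E12.5 and 281 to 3367 CPM at P0, with 8 of 8 genes higher. NPD30 was the low P0 litter in that list, the other P0 litters having at least 2811 CPM. The sclerotome list, which marks the mesenchyme around the notochord, summed to 122 to 200 CPM at E12.5 and to 5.06 to 16.3 CPM at P0, with 7 of 7 genes lower. The samples are bulk RNA, so fewer cells of a type and less RNA per cell cannot be told apart in any difference given here.

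Of the 10 genes, all passed the filter on low counts. Cdh1, Cdh3, Cdh4, Cdh11 and Ctnnd1 were past the threshold of the fit, all 5 lower at P0, and no member was past it in the other direction. The litters of the stages did not overlap for these 5 genes and overlapped for the other 5. Over all genes tested, 12% passed as lower at P0 and 16% as higher, and 29.9% had litters that did not overlap. The median log2 difference was -0.66 over the 10 members and 0.04 over all genes. Because the list was made with these values known, nothing is read from the counts.

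**Figure D1:**
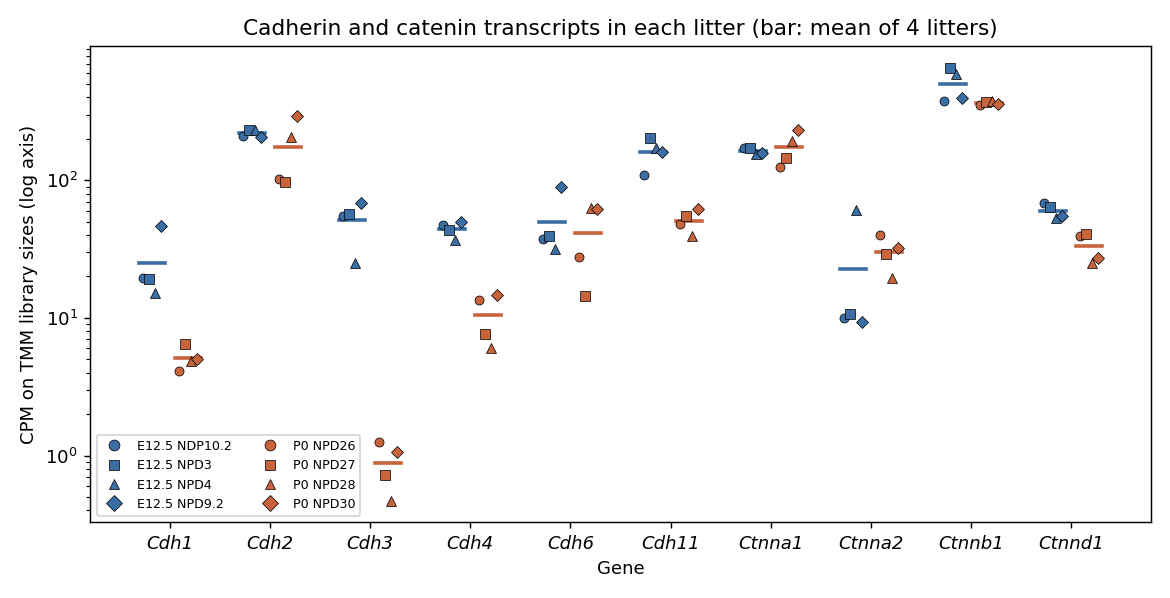
CPM of the 10 genes in each litter on a log axis, with E12.5 in blue, P0 in orange, a symbol for each litter and a bar at the mean of 4 litters. Cdh3 shows the widest gap, 24.9 to 68.4 CPM against 0.471 to 1.26 CPM, and Ctnna1 and Ctnnb1 lie high at both stages.

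Of the 4 type I cadherins, Cdh1, Cdh3 and Cdh4 were lower at P0 in every litter, whereas the litters overlapped for Cdh2. Cdh1 (E-cadherin, the main cadherin of epithelia; chromosome 8, 106603351 to 106670246, plus strand, GRCm38) was at 19.3, 19.1, 15.1 and 46.5 CPM in NDP10.2, NPD3, NPD4 and NPD9.2. At P0 it was at 4.09, 6.49, 4.83 and 5.00 CPM in NPD26, NPD27, NPD28 and NPD30. Every P0 litter lay below every E12.5 litter, and NPD9.2 stood well above the other E12.5 litters. The means were 25.0 ± 14.4 and 5.10 ± 1.01 CPM (SD, n = 4 each), a log2 difference of -2.28 with a standard error (SE) of 0.40, or 4.87-fold lower at P0.

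Cdh3 (P-cadherin, known from placenta, hair follicle and basal epithelial layers; chromosome 8, 106510891 to 106557297, plus strand) was the most different of the 10 genes. It was at 55.0, 57.0, 24.9 and 68.4 CPM in the E12.5 litters and at 1.26, 0.721, 0.471 and 1.06 CPM in the P0 litters. The P0 values rest on 8, 5, 4 and 7 counts, just above the floor of 3 counts, while the E12.5 litters had 206 to 292 counts. The lowest E12.5 litter, NPD4, was still far above the highest P0 litter. The log2 difference was -5.86 (SE 0.44, 95% interval -6.84 to -4.89), or 58.1-fold lower at P0. Cdh3 and Cdh1 are neighbours, with 46053 bases between the end of Cdh3 and the start of Cdh1, but the difference was larger for Cdh3 and the ratio of Cdh3 to Cdh1 transcripts per kb went from 1.53 to 3.11 at E12.5 to 0.102 to 0.321 at P0.

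Cdh2 (N-cadherin, the cadherin of neural, muscle and mesenchymal cells and of the notochord; chromosome 18) was the most abundant of the cadherins at both stages. Its E12.5 litters were close together at 211, 233, 232 and 206 CPM, and its P0 litters were spread at 103, 96.6, 205 and 295 CPM. NPD26 and NPD27 lay under all E12.5 litters, NPD28 just under them and NPD30 above them, so the stages overlapped. On the log2 scale the stages differed by -0.33 (SE 0.35), with a 95% interval of -1.10 to 0.43. The P0 litters followed the same order in T, with 1007, 574, 1372 and 2323 CPM. The E12.5 litters did not, with T at 942, 790, 242 and 362 CPM. The part of the notochord cell content in the spread of Cdh2 was not tested.

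Cdh4 (R-cadherin, first known from retina; chromosome 2, 179442431 to 179899373, plus strand) was at 47.2, 43.3, 37.1 and 49.9 CPM at E12.5. At P0 it was at 13.5, 7.64, 6.00 and 14.7 CPM. The E12.5 litters were tight and all lay above the P0 litters, of which NPD27 and NPD28 were lowest. This was 4.24-fold lower at P0, a log2 difference of -2.08 (SE 0.32).

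The type II cadherins, which lack the tripeptide of the type I binding site, split. Cdh11 (OB-cadherin, a cadherin of mesenchyme and bone-forming cells; chromosome 8, 102632095 to 102785642, minus strand) was at 109, 202, 172 and 161 CPM at E12.5 and at 47.8, 54.8, 39.1 and 62.0 CPM at P0. The stages did not overlap, although NDP10.2 was low among the E12.5 litters. This was 3.16-fold lower at P0, a log2 difference of -1.66 (SE 0.26). Markers of mesenchyme around the notochord and of bone moved at the same time, in opposite directions. All 7 sclerotome genes were lower at P0. The osteoblast list summed to 30.7 to 248 CPM at E12.5 and 1065 to 1827 CPM at P0, with all 5 tested genes higher. Over all genes, 12% were lower and 16% higher. Spp1 made up most of the osteoblast sum, at 26.4 to 245 CPM at E12.5 and 692 to 1207 CPM at P0. Bglap and Bglap2 were at no more than 1.30 CPM in any litter and were not tested. The part of mesenchyme and of bone cells in the Cdh11 difference was not tested.

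Cdh6 (K-cadherin, known from kidney and neural crest; chromosome 15, 13028701 to 13173675, minus strand) was at 37.3, 39.6, 31.4 and 90.0 CPM at E12.5 and at 27.8, 14.4, 62.5 and 61.9 CPM at P0. The stages overlapped, with NPD9.2 highest of all 8 litters and NPD27 lowest. Over all litters the log2 difference was -0.25 (SE 0.49, 95% interval -1.33 to 0.83). It turned positive, at 0.17, without NPD9.2 and at 0.05 without NPD27, so no direction is given for this gene.

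**Figure D2:**
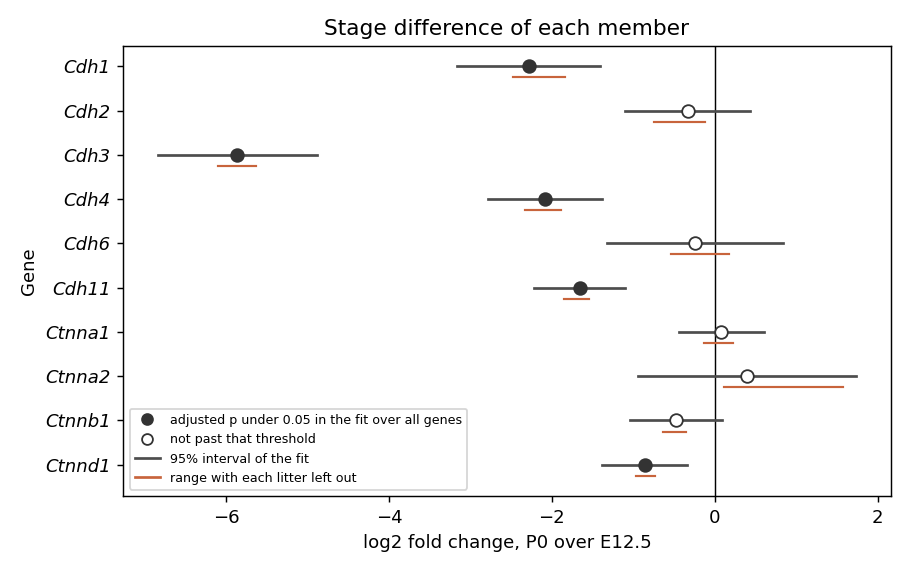
Log2 fold change, P0 over E12.5, of each of the 10 genes with the 95% interval of the fit, filled where the fit over all genes passed the threshold, and below each the range over fits that leave out 1 litter. The 5 filled points lie between -5.86 (Cdh3) and -0.86 (Ctnnd1), and the ranges of Cdh6, -0.54 to 0.17, and Ctnna1, -0.13 to 0.22, cross 0.

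The log2 differences of the 4 catenins lay between -0.86 and 0.39, and those of the 6 cadherins between -5.86 and -0.25. Ctnnb1 (chromosome 9, 120929216 to 120960507, plus strand) was at 375, 659, 589 and 397 CPM at E12.5 and at 350, 371, 376 and 359 CPM at P0. The P0 litters were almost level and the E12.5 litters fell into a lower pair, NDP10.2 and NPD9.2, and a higher pair, NPD3 and NPD4. The log2 difference was -0.47 (SE 0.26, 95% interval -1.04 to 0.09). NDP10.2 lay between the highest P0 litters.

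Ctnna1 (αE-catenin, the form found in most tissues; chromosome 18) was at 171, 172, 155 and 157 CPM at E12.5 and at 125, 145, 192 and 232 CPM at P0. The E12.5 litters lay inside the P0 range. The log2 difference was 0.08 (SE 0.24, 95% interval -0.44 to 0.61), and it was -0.13 without NPD30.

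Ctnna2 (αN-catenin, the form of neurons; chromosome 6, 76881637 to 77979699, minus strand) was at 9.91, 10.7, 60.4 and 9.34 CPM at E12.5 and at 39.9, 29.0, 19.7 and 32.0 CPM at P0. All P0 litters lay above NDP10.2, NPD3 and NPD9.2 and below NPD4. The log2 difference over all litters was 0.39 (SE 0.60, 95% interval -0.94 to 1.73), and without NPD4 it was 1.58 (SE 0.32). The same litter stood apart in 3 neuron genes. Tubb3, neuronal tubulin, was at 576 CPM in NPD4 and at 33.3, 23.2 and 43.5 CPM in NDP10.2, NPD3 and NPD9.2. At P0 Tubb3 was at 189, 108, 80.2 and 159 CPM, an order that Ctnna2 shared. Elavl3 and Elavl4, RNA-binding proteins of neurons, were at 289 and 477 CPM in NPD4, at 19.1 to 38.9 and 23.6 to 28.7 CPM in the other E12.5 litters. These 3 genes carried the sum of the 8 neural tube genes, which was 1372 CPM in NPD4, 83.3 to 129 CPM in the other E12.5 litters and 170 to 428 CPM at P0. The progenitor genes of the list did not all follow. Sox2 was highest of the E12.5 litters in NPD4, at 27.0 against 7.81 to 17.9 CPM. Sox1 lay within the range of the other litters, at 1.21 against 0.781 to 1.48 CPM. Pax6 was lowest in NPD4, at 1.57 against 3.51 to 4.95 CPM. Nkx6-1 was under the floor there, at 0.242 against 0.195 to 3.30 CPM, and Olig2 was under the floor in all E12.5 litters. In NPD4 Ctnna2 made up 26.4% of the α-catenin transcripts per kb (Ctnna1 and Ctnna2), in the other E12.5 litters 5.07% to 5.45% and at P0 8.65% to 22.8%. The part of neurons in the level of Ctnna2 was not tested.

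Ctnnd1 (p120-catenin, which keeps cadherins at the cell surface; chromosome 2, 84600071 to 84650765, minus strand) was at 68.6, 63.6, 53.0 and 55.1 CPM at E12.5. At P0 it was at 39.5, 41.0, 25.1 and 27.1 CPM. The stages did not overlap, with the lowest E12.5 litter, NPD4, above the highest P0 litter, NPD27. The log2 difference was -0.86 (SE 0.24, 95% interval -1.38 to -0.34), or 1.81-fold lower at P0. The gap was the narrowest of the 5, and without NDP10.2 and NPD9.2 the difference was -0.85 and no longer past the threshold.

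The counts of Ctnnd1 have a limit of their own. In Gencode M21, a later annotation than the M4 release the reads were counted on, 61.2% of its exonic bases also belong to Gm28635, a read-through gene on the same strand, and 4384 of its 8365 distinct stretches of 100 bases (52.4%) occur in transcripts of that gene. A read within such a stretch matches both genes, and Gm28635 had 0 counts in all 8 litters. A stretch of 100 bases from a coding exon present in both, chr2:84620355-84620454 on the minus strand of GRCm38, is shown because a read that lies within it fits both gene models, and it is printed in lower case throughout because all of it is shared.
Ctnnd1 and Gm28635: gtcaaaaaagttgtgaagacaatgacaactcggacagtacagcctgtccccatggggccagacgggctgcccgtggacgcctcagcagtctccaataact
Whether the M4 models share these exons in the same way, and how many reads of Ctnnd1 were set aside, was not tested. Its level against other genes is uncertain, while the comparison of stages uses the same gene model in all litters. Reads set aside as ambiguous by the counting were 10.6% to 17.5% of tallied reads at E12.5 and 7.07% to 10.5% at P0, and their part in the Ctnnd1 difference was not tested. Of the other members, Ctnnb1 shares 15.1% of its exonic bases, mostly with Ulk4 on the opposite strand, and Ctnna1 shares 1.48%. The 6 cadherins and Ctnna2 share none, and no stretch of 100 bases was common to any 2 members.

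Levels were compared between genes as mean CPM per kb of merged exons. At E12.5 the order was Ctnnb1 at 97.2 ± 27.1, Cdh2 at 27.3 ± 1.71, Ctnna1 at 25.5 ± 1.42, Cdh11 at 18.1 ± 4.36 and Cdh3 at 11.7 ± 4.23 CPM per kb (SD, n = 4). Ctnnd1 followed at 8.21 ± 1.0, Cdh4 at 6.12 ± 0.765, Cdh6 at 5.49 ± 3.01, Cdh1 at 5.47 ± 3.16 and Ctnna2 at 3.25 ± 3.63 CPM per kb. Ctnnb1 stood above all others, and the ranges of neighbours overlapped from Cdh2 to Ctnna1, from Cdh11 to Ctnnd1 and from Cdh4 to Ctnna2.

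At P0 Ctnnb1 was again first, at 70.1 ± 2.28 CPM per kb, followed by Ctnna1 at 27.0 ± 7.49 and Cdh2 at 21.7 ± 11.7, whose ranges overlapped. A lower group had ranges that overlapped from neighbour to neighbour, with Cdh11 at 5.72 ± 1.10, Cdh6 at 4.62 ± 2.70, Ctnnd1 at 4.53 ± 1.12 and Ctnna2 at 4.34 ± 1.21 CPM per kb. Cdh4 at 1.44 ± 0.591 and Cdh1 at 1.12 ± 0.220 also overlapped, and Cdh3 at 0.200 ± 0.0799 CPM per kb was under every other member. Cdh3 thus went from the fifth place to the last, while Ctnnb1 was first at both stages. When only the exonic bases not shared with other genes were counted as length, Ctnnd1 had 21.2 CPM per kb at E12.5 and 11.7 CPM per kb at P0 and took the fourth place in both orders.

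Within a litter the make-up of the cadherin transcripts differed between stages. The summed level of the 6 cadherins was 74.2 ± 10.3 CPM per kb in the E12.5 litters (65.6 to 86.3) and 34.8 ± 14.6 in the P0 litters (22.4 to 53.8), and the litters did not overlap. Cdh2 made up 37.4% ± 5.96 of that sum at E12.5 (29.6% to 43.8%) and 59.9% ± 8.05 at P0 (52.5% to 68.1%). Its share was thus larger in all P0 litters, while its own level overlapped between stages. Cdh3 made up 15.6% at E12.5 (8.66% to 19.1%) and 0.662% at P0 (0.277% to 1.19%). Cdh11 kept the next place after Cdh2 on average, with 24.4% at E12.5 (18.5% to 29.5%) and 18.5% at P0 (11.3% to 27.5%), and its shares overlapped.

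The N-cadherin to E-cadherin ratio per kb ran from 2.52 to 8.69 in the E12.5 litters and from 8.44 to 33.5 in the P0 litters, with a small overlap. Ctnnb1 transcripts per kb were 0.886 to 1.73 times those of the summed cadherins at E12.5 and 1.29 to 3.19 times at P0. These shares come from the same counts as the differences above and are not further evidence for them.

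**Figure D3:**
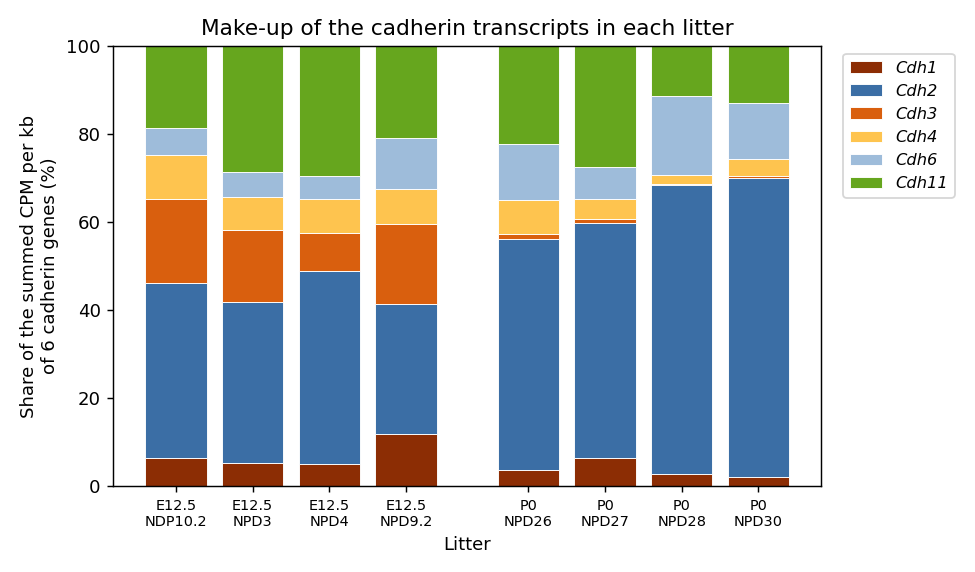
Share of each of 6 cadherin genes in their summed CPM per kb, stacked to 100% for each of 8 litters. Cdh2 takes 29.6% to 43.8% in the E12.5 litters and 52.5% to 68.1% in the P0 litters, and Cdh3 takes 8.66% to 19.1% and then no more than 1.19%.

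The spread between litters, which does not use the difference of the stages, was uneven among the 10 genes. The biological coefficient of variation was 0.589 for Ctnna2 and 0.490 for Cdh6, against medians of 0.321 and 0.305 for genes of a similar level. For the other 8 genes it lay between 0.273 (Ctnnd1) and 0.399 (Cdh1), and 6 of the 10 members were above the median of their level. Ctnna2 and Cdh6 are also the genes whose stage difference changed most with the litter left out.

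Related genes were listed by role to place the members in their pathway, with earlier results of these data known. Their adjusted p-values carry that limit. Of 16 other cadherins, 9 had enough counts to be tested, of which 3 were lower and 2 higher at P0, where 12% and 16% of all genes were, and the remaining 4 did not pass (median log2 difference -1.06, against 0.04 over all genes). Cdh13 (T-cadherin, which is held by a lipid anchor and has no catenin-binding tail) rose. It was at 12.0, 9.56, 10.4 and 14.8 CPM at E12.5 and at 32.7, 17.6, 46.0 and 56.7 CPM at P0, without overlap, a log2 difference of 1.71 (SE 0.36, adjusted p = 0.00491 by the edgeR quasi-likelihood F-test). It passed with any of the 8 litters left out. Cdh8, a type II cadherin of the nervous system, was higher by a log2 difference of 1.24 (edgeR adjusted p = 0.0419), and with a litter left out it passed in 1 of 8 fits.

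The 3 other cadherins that were lower belong to other cell types or are widely expressed. Cdh19, a type II cadherin of the neural crest and Schwann cell lineage, had a log2 difference of -3.13 (edgeR adjusted p = 0.0234) and was at 6.37 to 14.0 CPM at E12.5 and at 0 to 2.88 CPM at P0. Sox10, which marks that lineage, was at 88.4 to 190 CPM at E12.5 and at 1.77 to 19.2 CPM at P0. Cdh15 (M-cadherin of skeletal muscle) had a log2 difference of -2.34 (edgeR adjusted p = 0.0327) with litters that overlapped, and the muscle list that holds it summed to 123 to 582 CPM at E12.5 and 4.36 to 23.4 CPM at P0. The part of Schwann and muscle cells in these differences was not tested. Cdh24 had a log2 difference of -1.65 (edgeR adjusted p = 0.0229). With a litter left out, Cdh19, Cdh15 and Cdh24 passed in 7, 4 and 5 of 8 fits, and without NDP10.2 and NPD9.2 together none of the 3 passed (edgeR adjusted p = 0.0653, 0.342 and 0.184). Cdh5, VE-cadherin of endothelium, had -1.11 (edgeR adjusted p = 0.133) and did not pass, with 31.6 to 56.1 CPM at E12.5 and 8.24 to 45.6 CPM at P0.

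Of 7 other catenins and catenin-like genes, 5 were tested. At P0 2 were lower and 0 higher, against 12% and 16% of all genes, and 3 were not past the threshold. Those that passed were Ctnnd2 (δ-catenin, mostly neuronal; log2 difference -1.32, edgeR adjusted p = 0.0478) and Ctnnal1 (an α-catenin-like gene; -0.93, edgeR adjusted p = 0.0349), and both had overlapping litters. Ctnnd2 was highest in NPD4, at 82.1 CPM against 22.6 to 40.3 CPM in the other E12.5 litters. Jup (plakoglobin, which can take the place of β-catenin in the junction) was at 58.3 to 105 CPM at E12.5 and 47.5 to 92.6 CPM at P0, a log2 difference of -0.20 (SE 0.28, 95% interval -0.81 to 0.41). Ctnnd2 and Ctnnal1 passed in 3 and 2 of the 8 fits with a litter left out.

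All 20 junction partners were tested. At P0 6 were lower and 1 higher, against 12% and 16% of all genes, and 13 were not past the threshold. The genes that fell most were polarity and nectin-side genes. Pard3, a scaffold of the apical polarity complex, went from 101 ± 13.5 to 20.0 ± 9.80 CPM (log2 difference -2.33, edgeR adjusted p = 0.000645). Shroom3, which draws apical actomyosin together, had -2.28 (edgeR adjusted p = 0.00116). Nectin2, an immunoglobulin-like adhesion molecule of the same junctions, had -1.74 (edgeR adjusted p = 0.00151), and Afdn, the afadin that ties nectins to actin, had -1.52 (edgeR adjusted p = 0.00197). These 4 genes passed with any litter left out.

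The calls of 3 further partners were less stable. Ptprf, a receptor phosphatase, had a log2 difference of -1.36 (edgeR adjusted p = 0.0327), Ajuba, a LIM protein that binds α-catenin, had -1.25 (edgeR adjusted p = 0.0277), and Ssx2ip, which binds afadin, had 0.85 (edgeR adjusted p = 0.0307). With a litter left out they passed in 2, 5 and 3 of 8 fits, and without NDP10.2 and NPD9.2 together none of the 3 passed (edgeR adjusted p = 0.154, 0.186 and 0.0635). Vcl, vinculin, which α-catenin recruits under tension, did not pass, at 0.21, with 20.8 to 36.6 CPM at E12.5 and 14.6 to 68.7 CPM at P0.

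Of 16 transcription and splicing regulators known to act on cadherin genes or on epithelial state, 14 were tested (median log2 difference -1.96). At P0 7 were lower and 0 higher, against 12% and 16% of all genes, and 7 were not past the threshold. The 7 lower genes were of opposite known roles. Esrp1 and Esrp2, which give epithelial splice forms, had log2 differences of -3.99 and -3.34 (edgeR adjusted p = 0.000828 and 0.00302), and Grhl3 and Grhl2, activators of epithelial genes such as Cdh1, had -3.38 and -2.33 (edgeR adjusted p = 0.0066 and 0.0348). Twist2, Twist1 and Foxc2, factors of mesenchyme and sclerotome, had -4.27, -2.19 and -1.90 (edgeR adjusted p = 0.00111, 0.00056 and 0.00288). The sclerotome list fell over the same comparison, as given above, and its part in the values of these 3 genes was not tested. Esrp2, Grhl3 and Grhl2 were highest in NPD9.2, at 17.5, 22.6 and 9.10 CPM, and Esrp1 in NDP10.2, at 16.7 CPM. The part of surface epithelium, whose genes are given below, in the Esrp and Grhl values was not tested either.

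Esrp1 was at 12.5 to 16.7 CPM at E12.5 and 0.118 to 1.73 CPM at P0, and Twist1 at 33.2 to 55.4 and 6.95 to 11.8 CPM. Twist2 was at 6.77 to 18.2 CPM at E12.5 and 0.157 to 1.59 CPM at P0. In some P0 litters Twist2, Esrp1, Esrp2, Grhl2 and Grhl3 were under the floor of 3 counts, so the size of their differences is uncertain. The 7 genes passed in all fits with a litter left out, except Grhl2, which passed in 3 of 8. Without NDP10.2 and NPD9.2 together neither Grhl2 nor Grhl3 passed (edgeR adjusted p = 0.103 and 0.0832). Twist1 is also known as a repressor of Cdh1 in epithelial to mesenchymal transition. Of the other known repressors, 4 in the Snai and Zeb families did not pass. Their log2 differences were -0.24 for Snai1, -0.90 for Snai2, -0.55 for Zeb1 and 0.88 for Zeb2 (edgeR adjusted p = 0.771, 0.0872, 0.254 and 0.135), and the stages overlapped in each. Zeb2 was at 99.1 to 240 CPM at E12.5 and 105 to 427 CPM at P0.

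**Figure D4:**
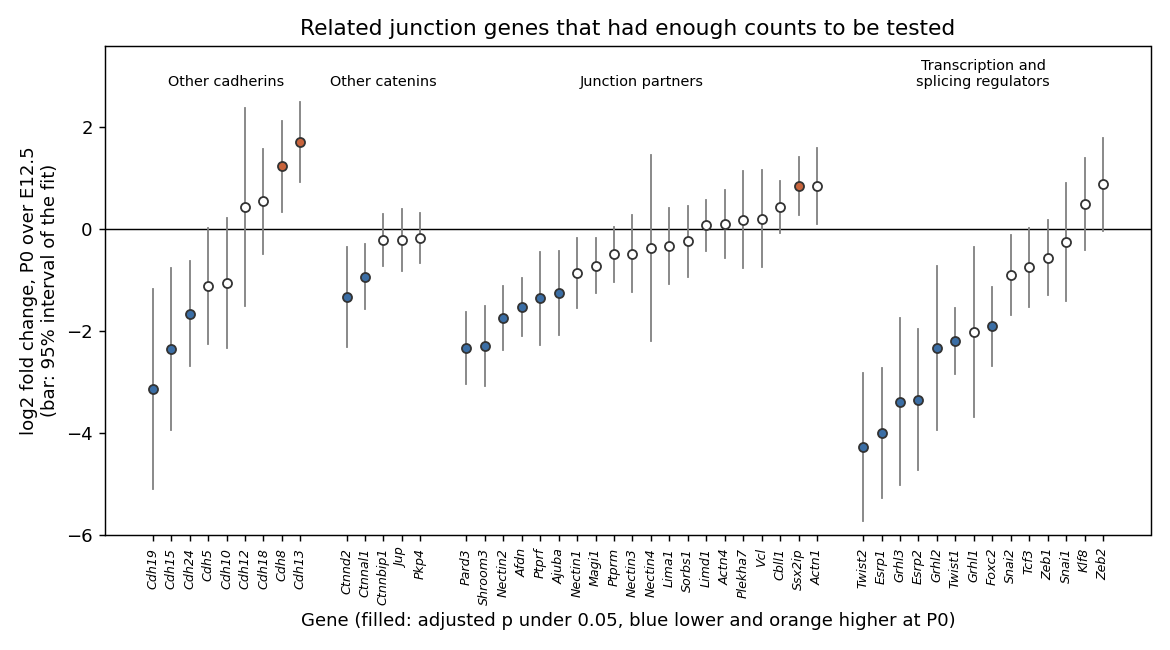
Log2 fold change, P0 over E12.5, with its 95% interval for the related genes that were tested, in 4 groups by role, filled where the edgeR adjusted p was under 0.05. Cdh13 at 1.71 is the highest filled point and Twist2 at -4.27 the lowest, with Twist2 under the floor in some P0 litters.

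Genes of surface epithelium were added to the marker lists after their values had been seen, because Cdh1 and Cdh3 are known from skin. Of 11 such genes 7 were lower and 1 was higher at P0. Trp63, the p63 factor of basal epithelium, was at 19.6, 20.5, 12.1 and 19.4 CPM at E12.5 and at 1.42, 4.04, 0.235 and 0.303 CPM at P0. Krt5, a basal keratin, was at 17.0, 12.7, 14.7 and 49.2 CPM and then at 0.786, 0.721, 0 and 0.152 CPM.

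Krt5 was highest in NPD9.2, the litter in which Cdh1 was highest too. Krt14 and Epcam also had their highest value there, at 22.9 and 19.7 CPM. The summed level of the 11 genes did not move the same way, with 108 to 271 CPM at E12.5 and 177 to 689 CPM at P0, since Perp and Krt7 carried the sum. The part of surface epithelium in the differences of Cdh1 and Cdh3 was not tested. The endoderm and liver list, another source of Cdh1, summed to 42.7 to 700 CPM at E12.5 and to 1.18 to 4.47 CPM at P0. Afp and Alb carried the E12.5 sum, at 26.3 to 368 and 10.3 to 269 CPM. Of its 7 genes 3 had enough counts to be tested, all 3 lower at P0. Cdx2, Cdh17 and Vil1 were at no more than 1.18 CPM in any E12.5 litter. Cdh17 was at 0 to 0.195 CPM at E12.5 and 0.353 to 1.30 CPM at P0. The part of endoderm and liver was not tested either.

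**Figure D5:**
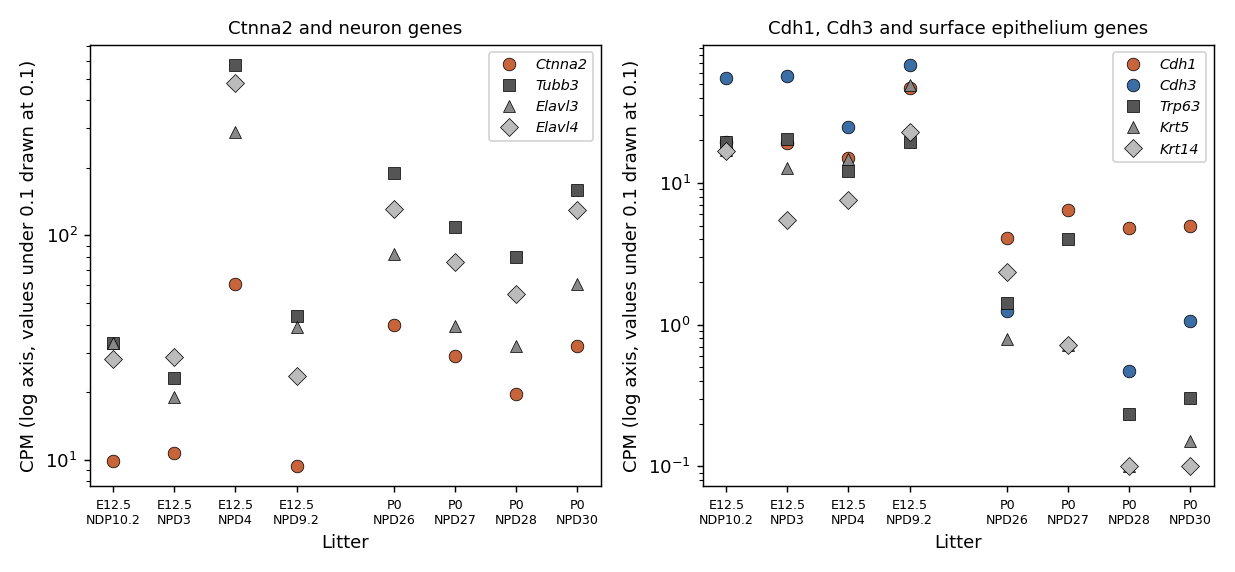
CPM on log axes in each litter of Ctnna2 beside the neuron genes Tubb3, Elavl3 and Elavl4 (left) and of Cdh1 and Cdh3 beside the epithelial genes Trp63, Krt5 and Krt14 (right), with values under 0.1 drawn at 0.1. NPD4 is highest in all 4 genes on the left, with 60.4 CPM of Ctnna2 and 576 CPM of Tubb3, and the E12.5 litters lie above the P0 litters for all 5 genes on the right.

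The genes nearest in profile were sought for the top member by level and for Cdh1, Cdh3 and Cdh11, by the root mean square distance between log2 CPM profiles centred on each gene over the 8 litters, among 13457 genes. For Ctnnb1 these were Srsf7 (0.0569), Tlk2 (0.0969) and Hnrnpd (0.0970), a splicing factor, a chromatin kinase and an RNA-binding protein. For Cdh1 they were Fbln2 (0.248), Pdzrn3 (0.249) and Rarb (0.251), for Cdh3 Gm28653 (0.314), Sfrp2 (0.403) and Crabp1 (0.478), and for Cdh11 Arhgap28 (0.168), Zfp334 (0.187) and Wnt11 (0.222). Gm28653 was at 0 in all P0 litters, and its log2 difference was -9.63, against -5.86 for Cdh3. The prior count of 2 in these profiles brings values near 0 closer together, so this distance understates how far the 2 genes differ. With 8 litters in 2 stages, a profile of this kind is mostly the difference between the stages.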

How the data were processed

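RNA-seq of 8 pooled litters (4 at E12.5, 4 at P0) was analysed. The authors aligned reads to GRCm38 with STAR (2.4.0j in the submitters' processing notes, which also name mm9), used HTSeq to count reads over the gene models of Gencode M4, and deposited raw counts per gene, not normalized. The strand setting and overlap mode of the counting are not given in the sources used here, so antisense overlaps could not be separated. Tally rows that name no gene were left out, and 22.6% to 34.8% of tallied reads were on genes. Positions and exon lengths came from Gencode M21, not M4, on the same build.

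Counts were tested in R 4.3.3 with edgeR 4.0.16 and limma 3.58.1 (TMM, filterByExpr with minimum count 10 and minimum total 15, robust quasi-likelihood F-test, Benjamini-Hochberg over 15467 genes, threshold 0.05) in all 8 litters without covariates. Plotted and printed levels are CPM, and log2 profiles used a prior count of 2. Scripts were tested on simulated data. The precision is set by 4 litters per stage and 4442775 to 8904050 gene counts per litter.

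The members and all lists were chosen with earlier results of these data known, and the surface epithelium list after its values were seen. All 10 members were named. In the 4 related lists, genes past the threshold could be named, with at least the 2 largest changes in each direction, and Jup, Vcl, Cdh5, Snai1, Snai2, Zeb1 and Zeb2 were named for their known roles after their values were seen. The 3 nearest profiles were taken for the member with the highest CPM per kb and for Cdh1, Cdh3 and Cdh11, among tested genes with a mean log2 CPM of at least 2. Alternatives were DESeq2 1.42.0, its size factors, no filter, each litter left out, litters NDP10.2 and NPD9.2 left out together and, chosen after seeing the data, lengths without shared exonic bases. Replicates of a stage differed far beyond sampling noise, with a mean chi-square per gene of 18.3 to 140 between litters.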

Additional observations from a re-analysis of the deposited data

Results flagged for a closer look

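In 3 of the 20 groups of 4 litters examined, the highest litter lay so far from the others that its gap, as a share of the range of the group (gap ratio), passed the critical value of Dixon's test for 4 samples. For normally distributed values in independent groups, chance gives such a gap in about 1 of 20 groups. The groups here hold untransformed CPM of the same litters, so the count of 3 cannot be set against that rate. Cdh1 at E12.5 was at 46.5 CPM in NPD9.2 and at 15.1 to 19.3 CPM in the other litters (gap ratio 0.865). Cdh6 at E12.5 was at 90.0 CPM in the same litter and at 31.4 to 39.6 CPM in the others (gap ratio 0.860). Ctnna2 at E12.5 was at 60.4 CPM in NPD4 and at 9.34 to 10.7 CPM in the others (gap ratio 0.973), the litter in which Tubb3, Elavl3 and Elavl4 were also highest.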

How the results depend on the processing

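No paired analysis was possible because the litters of the stages share no number or animal. Results could be limited by 4 litters a stage, by stage and isolation method changing together, and by the floor of 3 counts for Cdh3 at P0. Cdh19, Twist2, Esrp1, Esrp2, Grhl2 and Grhl3 were under that floor in some P0 litters. The DESeq2 test and DESeq2 size factors moved no list count by more than 1.5 times, and DESeq2 called 2323 genes lower and 2801 higher, against 1853 and 2468. Without the filter, 1 other cadherin and 2 junction partners were higher, and the median log2 difference of all genes was 0.45 in place of 0.04. Without NDP10.2 and NPD9.2 together, 0 other cadherins were lower and 1 higher, 1 other catenin was lower, 0 junction partners were higher, and 1088 genes were lower and 1493 higher. In that setting 4 members were lower, Ctnnd1 no longer passing, and Cdh6 turned to 0.20 and Ctnna2 to -0.28.

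With each litter left out, 5 members were lower in every fit and 0 to 1 higher, the 1 being Ctnna2 without NPD4. The counts were 1 to 4 other cadherins lower and 1 to 2 higher, 0 to 2 other catenins lower, 4 to 9 junction partners lower and 0 to 1 higher, 6 to 8 regulators lower and 0 to 1 higher, and 1512 to 1943 genes lower and 2084 to 2586 higher. Other cadherins had 1 lower without NDP10.2, NPD9.2 or NPD26, and other catenins had 0 lower without NPD4, NPD9.2, NPD26, NPD27 or NPD28. Cdh6 ranged from -0.54 to 0.17, positive without NPD9.2 (0.17) or NPD27 (0.05), and Ctnna1 from -0.13 (without NPD30) to 0.22. Ctnna2 ranged from 0.11 to 1.58. Of the values of single genes, 309 kept direction and side of the threshold, 57 lost the call, 1 gained it and 5 reversed. On unshared length Ctnnd1 was at 21.2 CPM per kb at E12.5 and 11.7 at P0, and Ctnnb1 at 82.5 at P0. The causes were not tested.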
